A study of Rattus norvegicus with 23 samples.

Results

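The mitochondrial ribosomal proteins are the nucleus-encoded proteins whose rat gene symbols begin with Mrpl or Mrps followed by a digit. They numbered 70 of the 10723 genes with values per library at 12 weeks, and all 70 also had rows in the authors' deposited tables of comparisons at 12 and 6 weeks. By their known places, 45 belong to the large subunit, named Mrpl or, for Mrps18a and Mrps30, Mrps. Another 24 belong to the small subunit. Mrps36 keeps the family's name although its protein is a part of the 2-oxoglutarate dehydrogenase complex and not of the mitoribosome.

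The samples were polyadenylated RNA from myocardium of Sprague-Dawley rats. Every rat had a myocardial infarction (MI) from ligation of the left coronary artery. The MI+TRD rats then had a second operation that implanted a TRD device, which the labels do not describe further, and the MI rats did not. There were 6 MI+TRD and 6 MI libraries at 12 weeks, with 7197118 to 10304156 recovered reads each, and 5 MI+TRD and 6 MI samples at 6 weeks, which entered only through the authors' deposited table. The labels give no age and no animal identifiers, and no sham-operated group was analysed here. Cardiomyocyte markers (10 of the 11 listed were in the table) were abundant in every 12-week library, with summed values of 28135 to 39660 in MI+TRD and 33525 to 55878 in MI.

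Mitochondrial ribosomes translate the few messages of mitochondrial DNA, all of which code for subunits of the respiratory chain and ATP synthase. Their RNA is made inside the organelle, while their proteins are encoded in the nucleus, made on cytosolic ribosomes and imported. The heart depends on oxidative phosphorylation, and in humans inherited defects of several of these proteins, among them MRPL3, MRPL44, MRPS14 and MRPS22, have been found in children with cardiomyopathy.

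At 12 weeks nearly the whole family had lower values in MI+TRD than in MI. The log2 fold change was below 0 for 68 of 70 members. It was below the median of all genes, itself under 0, for 66 of 70. At an unadjusted limma p below 0.05, 53 members were lower, which is 75.7% of the family against 19.1% of all 10655 genes tested. No member was higher at that threshold, against 2.8% of all genes. The members' median log2 fold change was −0.52, a ratio of 0.696, with quartiles of −0.66 and −0.37, and it lay 0.38 below the median of all genes, which was itself −0.14. After Benjamini-Hochberg adjustment no member and 0% of all genes passed 0.05, the smallest adjusted p being 0.133. By the authors' deposited table, 17 of the 70 members (24.3%) were lower at a false discovery rate below 0.05 and 0 were higher, beside 2.9% of its 11283 genes lower. An exact permutation test over the libraries, not adjusted, gave p below 0.05 for 52 of the 70. It was run on the members only, so no share of all genes stands beside this count. In bulk tissue, fewer cells of a type and less RNA per cell cannot be told apart.

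The difference was not spread evenly over the MI+TRD libraries. Members below the lowest MI library numbered 61, 56 and 62 in MI+TRD replicates 1, 4 and 5, but 5, 20 and 39 in replicates 2, 3 and 6. The share of all genes below the lowest MI library was not computed for each library. The family's mean log2 value minus the library's median was 0.63, 1.26, 1.24, 0.71, 0.46 and 0.87 in MI+TRD replicates 1 to 6, and 1.30, 1.21, 1.29, 1.40, 0.997 and 1.21 in MI replicates 1 to 6. MI+TRD replicates 2 and 3 were thus inside the range of the MI libraries, and the other 4 were below it. As a share of the library total the family took 0.291% to 0.511% in MI+TRD and 0.456% to 0.491% in MI. MI+TRD replicates 1, 4 and 5 also stood apart in other ways. Genes at 0 reads numbered 119, 114 and 178 in them. They numbered 13 to 46 in MI+TRD replicates 2, 3 and 6, and 28 to 75 in MI. The haemoglobin message Hba2 reached 88.3, 234 and 465 in the same 3 libraries and 25.7 at most in MI, but the summed red cell markers did not follow it, at 281, 670 and 1031 in MI+TRD replicates 1, 4 and 5, at 525 to 660 in replicates 2, 3 and 6, and at 187 to 833 in MI. Myoglobin (Mb), the oxygen store of cardiomyocytes, was at 3286, 2304 and 1631 in those 3 libraries, at 5227 to 6637 in MI+TRD replicates 2, 3 and 6, and at 6071 to 8540 in MI. The summed endothelial markers split the MI+TRD libraries the same way, at 462, 532 and 458 in replicates 1, 4 and 5 and 227, 285 and 278 in replicates 2, 3 and 6, on either side of the 318 to 440 of MI. For non-member genes spanning up to 5 kb, the median log2 deviation from each gene's mean was taken relative to that of all genes in the library. It was −0.36, −0.31 and −0.30 in MI+TRD replicates 1, 4 and 5. It was 0.039 to 0.12 in MI+TRD replicates 2, 3 and 6, and −0.018 to 0.25 in MI. The summed markers of macrophages were 31.3 to 1810 in MI+TRD and 36.9 to 115 in MI, those of fibroblasts 686 to 3036 in MI+TRD and 760 to 1087 in MI, and those of epicardium or mesothelium 15.4 to 82.5 in MI+TRD and 9.26 to 23.9 in MI. The highest sums of these 3 lists were those of MI+TRD replicate 6. The part of these cell types in the family's difference was not tested.

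**Figure D1:**
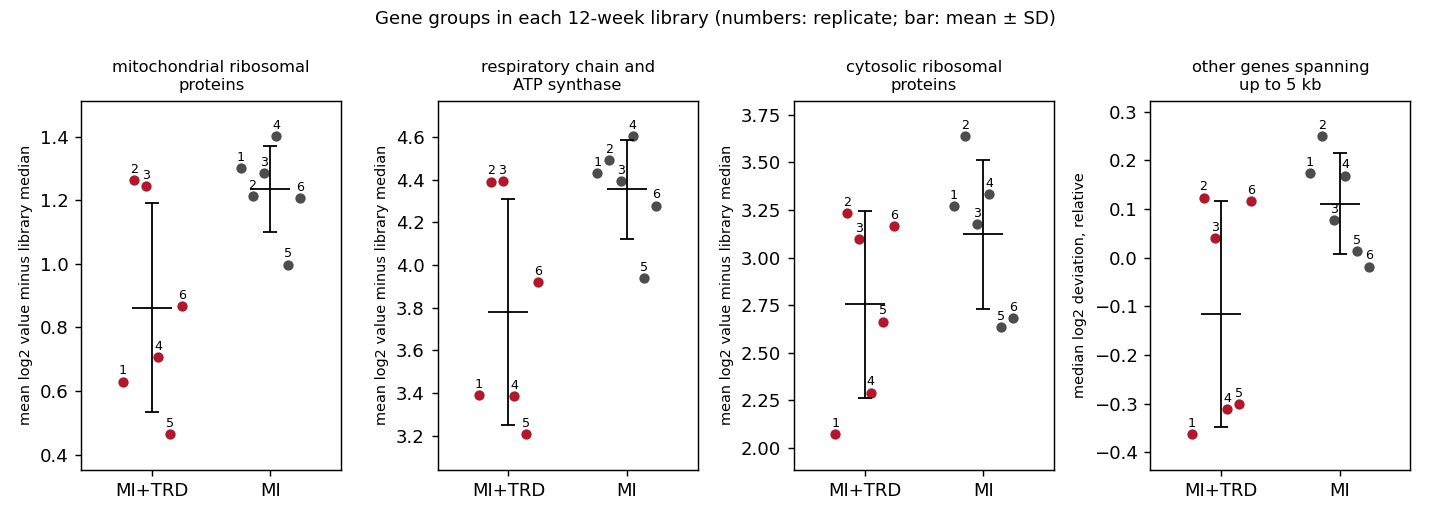
Each point is 1 of the 12 libraries at 12 weeks, numbered by replicate, MI+TRD in red and MI in grey, with bars for the mean ± SD (n = 6 each). The vertical axes give a group's mean log2 value minus the library's median over all genes. At the right they give the median log2 deviation of short non-member genes minus that of all genes in the library. MI+TRD replicates 1, 4 and 5 lie lowest or among the lowest in all 4 panels.

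Without those 3 libraries, which are also the 3 lowest in the family, 62 of 70 members had a log2 fold change below 0, beside 7440 of all 10655 genes, and 49 of 70 were below the median of all genes. Only 6 members (8.57%) were lower at an unadjusted limma p below 0.05, beside 9.69% of all genes, and the median lay 0.094 below that of all genes. The 6 were Mrps12, Mrps34, Mrpl45, Mrps27, Mrpl53 and Mrpl58. How much of the family's difference belongs to whatever else set these libraries apart was not tested. The fit without them held MI+TRD replicates 2, 3 and 6 against the 6 MI libraries. Leaving out the 3 lowest libraries, chosen after seeing the data, makes the family's difference smaller by construction. The values without them, here and for single members below, are descriptions and not a test. The scaling of the libraries also moved the counts. As deposited, the library totals were 379983 ± 11013 in MI+TRD and 450798 ± 58012 in MI (SD, n = 6 each). They differed at exact permutation p = 0.00433 (0.0519 adjusted over 12 library measures). Ribosomal RNA took 1.81% to 4.45% of the total in MI+TRD and 1.35% to 11.7% in MI (exact permutation p = 0.0736, 0.177 adjusted). It was lowest in MI replicates 5 and 6, at 1.35% and 1.78%. Its part in the totals was not tested. The members lower and higher numbered 31 and 0 with median-ratio size factors (all genes, 878 and 798) and 17 and 1 with equal column totals (all genes, 412 and 1208), against 53 and 0 as deposited (all genes, 2033 and 298). These 2 scalings put the median of all genes at 0.012 and 0.085 in place of −0.14. A factor per library shifts every gene alike, so the members' median relative to that of all genes is nearly fixed under these scalings.

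**Figure D2:**
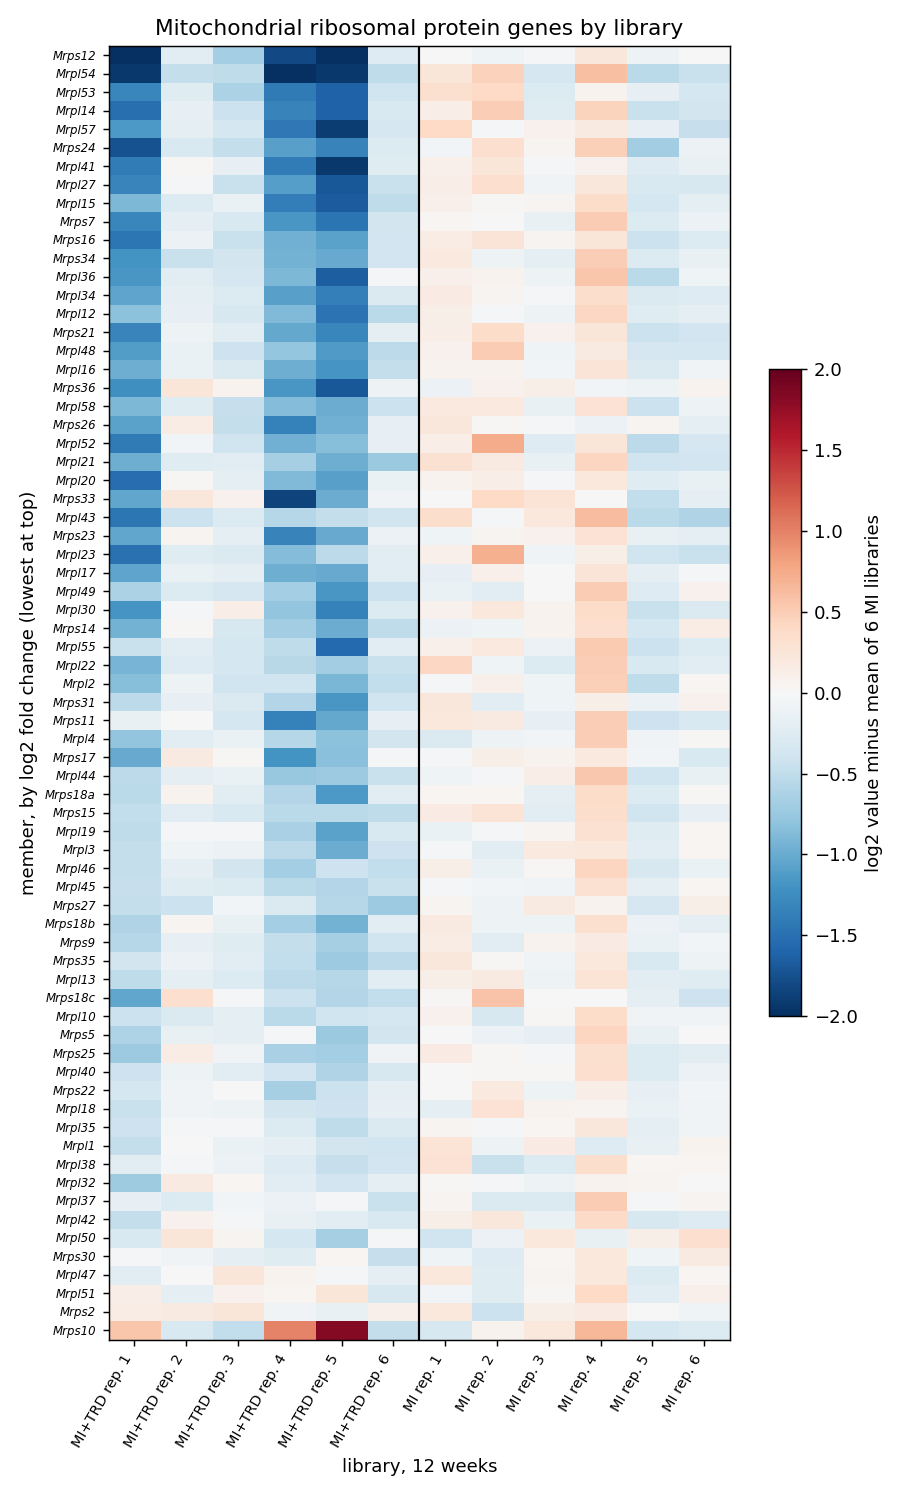
Rows are the 70 members ordered by log2 fold change and columns the 12 libraries at 12 weeks, MI+TRD left of the line and MI right of it. Colour gives the log2 value minus the mean of the 6 MI libraries (blue lower, red higher), and the blue is deepest in MI+TRD replicates 1, 4 and 5, where Mrps10 at the bottom row is red.

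The promoters of a family that moves together bear on which shared sequences it carries, and 56 of the 70 members had a promoter in the RefSeq table of build GRCr8, each running from 250 bases before the annotated start to 50 after it. Exact matches on either strand were counted for the NRF1 motif GCGCATGCG (matches on both strands can overlap and then mark the same stretch), the ETS family motif CCGGAAG and the YY1 motif AAGATGGCG, motifs of factors known for genes of mitochondrial proteins. The ETS motif stood in 20 members (35.7%), against 18.0% of the promoters of tested genes and 8.75% of all promoters. NRF1 stood in 5 members (8.93%), against 3.30% of tested genes and 1.52% of all promoters. YY1 stood in 9 members (16.1%), against 3.95% and 1.73%. At least 1 of the 3 stood in 29 members (51.8%), against 23.2% of tested genes. The GC box GGGCGG stood in 51.8% of members, against 63.1% of tested genes, and the ERR motif TCAAGGTCA in 0 of 56.

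The promoters of 8 members are printed from 140 bases before to 10 after the start, 5′ to 3′ on the gene's strand, with NRF1, ETS and YY1 matches in capitals. Mrpl17, Mrps18b and Mrpl44 are shown for NRF1, Mrpl53 and Mrpl58 for ETS among the members with the smallest p, Mrpl36 for an ETS and a YY1 match upstream, and Mrpl12 and Mrpl51 as a lower member and one near 0 without any of the 3.
Mrpl17, chr1:169575690-169575839, minus strand: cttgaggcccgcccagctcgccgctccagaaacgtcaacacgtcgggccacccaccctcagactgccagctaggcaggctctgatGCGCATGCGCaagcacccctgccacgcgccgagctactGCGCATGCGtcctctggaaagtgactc
Mrps18b, chr20:2842866-2843015, plus strand: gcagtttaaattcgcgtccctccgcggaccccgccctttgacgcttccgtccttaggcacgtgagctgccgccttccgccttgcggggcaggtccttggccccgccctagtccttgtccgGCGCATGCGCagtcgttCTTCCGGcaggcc
Mrpl44, chr9:88554910-88555059, plus strand: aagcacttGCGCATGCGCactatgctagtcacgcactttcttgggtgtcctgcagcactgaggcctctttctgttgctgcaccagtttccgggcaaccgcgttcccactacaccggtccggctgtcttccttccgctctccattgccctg
Mrpl53, chr4:117172903-117173052, plus strand: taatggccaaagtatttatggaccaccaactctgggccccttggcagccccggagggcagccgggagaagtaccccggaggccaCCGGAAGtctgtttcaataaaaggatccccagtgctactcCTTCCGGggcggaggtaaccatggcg
Mrpl58, chr10:101145202-101145351, plus strand: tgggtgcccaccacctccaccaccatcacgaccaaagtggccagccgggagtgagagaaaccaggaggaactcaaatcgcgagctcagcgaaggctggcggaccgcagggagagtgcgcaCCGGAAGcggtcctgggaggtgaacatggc
Mrpl36, chr1:31795112-31795261, minus strand: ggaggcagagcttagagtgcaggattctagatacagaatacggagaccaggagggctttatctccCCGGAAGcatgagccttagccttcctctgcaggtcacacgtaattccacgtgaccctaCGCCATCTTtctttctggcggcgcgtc
Mrpl12, chr10:106256606-106256755, plus strand: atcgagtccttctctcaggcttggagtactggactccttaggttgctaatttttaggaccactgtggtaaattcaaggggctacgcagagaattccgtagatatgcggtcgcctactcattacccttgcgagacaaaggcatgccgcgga
Mrpl51, chr4:159677848-159677997, plus strand: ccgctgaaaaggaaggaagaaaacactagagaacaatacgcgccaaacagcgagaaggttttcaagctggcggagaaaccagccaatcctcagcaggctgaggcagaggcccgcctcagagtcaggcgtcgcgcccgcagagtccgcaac

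Matches did not sort the lower members from the others in a simple way. Of the 20 members with the ETS motif, 18 were lower at an unadjusted limma p below 0.05, against 24 of the 36 without it, with median log2 fold changes of −0.62 and −0.45. Of the 9 with the YY1 motif, 4 were lower, against 38 of the 47 without it, with medians of −0.18 and −0.55. Of the 5 with the NRF1 motif 4 were lower. The shares of all tested genes that were lower, with and without each motif, were not computed. These counts describe the letters in the window and were not tested.

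In the large subunit 35 of 45 members were lower at an unadjusted limma p below 0.05, with a median log2 fold change of −0.54 and none above 0. Mrpl12, whose protein forms the stalk that recruits translation factors, had normalized counts of 53.0, 92.6 and 131 (lowest, median, highest) in MI+TRD and 125, 141 and 197 in MI. All MI+TRD libraries but 1 were below every MI library, and only replicate 2 was inside the MI range. The log2 fold change was −0.70 (SE 0.20, exact permutation p = 0.00649, limma adjusted p = 0.133), and −0.34 without MI+TRD replicates 1, 4 and 5. Mrpl10, whose protein anchors that stalk, averaged 19.7 ± 1.68 in MI+TRD and 25.7 ± 4.16 in MI (SD, n = 6 each), a log2 fold change of −0.37 (SE 0.13).

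Mrpl54 had the largest difference of the large subunit. Its normalized counts were 14.4, 30.3 and 45.0 in MI+TRD and 43.4, 62.3 and 95.8 in MI. MI+TRD replicates 1, 4 and 5 were below every MI library, while the other 3 lay at the lower end of the MI range. MI+TRD over MI gave a log2 fold change of −1.24 (SE 0.33, exact permutation p = 0.00866), and −0.50 without those libraries. Mrpl53, which like Mrpl54 is a mitochondrion-specific protein of the subunit, had 5.73, 9.38 and 15.3 in MI+TRD and 14.2, 17.6 and 24.0 in MI. In MI+TRD 5 libraries lay below every MI library, and the log2 fold change was −0.94 (SE 0.24, exact permutation p = 0.00649), against −0.43 without the 3 libraries. In the rn6 coordinates of the deposited table Mrpl53 spans 866615 bases and overlaps other genes, so its reads may not be its own alone.

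Mrpl58 encodes a hydrolase that frees stalled mitoribosomes and is built into the large subunit. It had 13.6, 17.4 and 23.1 in MI+TRD and 20.3, 28.4 and 33.4 in MI. In MI+TRD 4 of 6 libraries were below every MI library. Its log2 fold change was −0.65 (SE 0.17, exact permutation p = 0.00649), and −0.38 without MI+TRD replicates 1, 4 and 5.

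Mrpl45, whose protein lies at the exit of the peptide tunnel and ties the ribosome to the inner membrane, was 1 of 4 members whose groups did not overlap, with Mrpl49, Mrps34 and Mrps12. That is 4 of 70, beside 1.59% of all genes with every MI+TRD library below every MI library. Mrpl45 had 35.8, 39.0 and 45.6 in MI+TRD and 47.5, 52.0 and 66.7 in MI. Its log2 fold change of −0.43 (SE 0.12, exact permutation p = 0.00216) was smaller than that of Mrpl54. Relative to the MI mean, its log2 values were −0.47, −0.24, −0.27, −0.55, −0.58 and −0.45 in MI+TRD replicates 1 to 6. The fold change was −0.32 without MI+TRD replicates 1, 4 and 5. With all libraries it was −0.26 with median-ratio size factors and −0.19 with equal column totals. Overlap of the groups was examined only on the deposited scaling, for all 4 members. Mrpl49, a mitochondrion-specific protein of the large subunit, had 2.90, 4.59 and 5.51 in MI+TRD and 5.62, 6.45 and 9.67 in MI, from 73 to 178 reads a library. The highest MI+TRD library was just under the lowest MI library, and the log2 fold change was −0.59 (SE 0.18).

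Mrpl16, the counterpart of a bacterial protein near the site where aminoacyl-tRNA is seated, had 23.6, 33.0 and 49.1 in MI+TRD and 44.1, 54.3 and 64.3 in MI. In MI+TRD 4 libraries were below every MI library, and the log2 fold change was −0.67 (SE 0.18). Mrpl48, of the central protuberance of the subunit, had 15.3, 21.7 and 30.7 in MI+TRD and 26.5, 33.9 and 48.0 in MI, with 5 MI+TRD libraries below MI. Its log2 fold change was −0.68 (SE 0.19). Without MI+TRD replicates 1, 4 and 5 these values were −0.30 for Mrpl16 and −0.35 for Mrpl48.

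Mrpl3, Mrpl44, Mrpl17 and Mrpl4, known from human heart disease or with high values, were also lower. Others of these kinds, Mrps22, Mrpl37 and Mrpl51, were not lower at an unadjusted limma p below 0.05. Mrpl3, a protein close to the peptidyl transferase centre, averaged 50.2 ± 10.9 in MI+TRD and 67.0 ± 8.76 in MI (SD, n = 6 each), a log2 fold change of −0.43 (SE 0.15). Mrpl44, which carries the fold of a ribonuclease, averaged 15.8 ± 2.91 in MI+TRD and 21.98 ± 5.13 in MI, a log2 fold change of −0.46 (SE 0.17). Mrpl17 averaged 47.8 ± 14.8 in MI+TRD and 69.8 ± 8.09 in MI, and Mrpl4, whose bacterial counterpart lines the peptide tunnel, averaged 42.4 ± 8.40 in MI+TRD and 59.5 ± 12.0 in MI. Their log2 fold changes were −0.60 (SE 0.18) and −0.49 (SE 0.16), and all 4 genes were lower at an unadjusted limma p below 0.05. Without MI+TRD replicates 1, 4 and 5 none of the 4 was, with −0.20 for Mrpl3, −0.26 for Mrpl44, −0.18 for Mrpl17 and −0.25 for Mrpl4.

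A few large-subunit members did not move with the rest. Mrpl51 had 37.4, 48.8 and 55.2 in MI+TRD and 39.2, 46.1 and 61.4 in MI, and the groups overlapped almost entirely. Its log2 fold change was −0.00031 (SE 0.14), and its sign turned with the setting, for example to 0.16 with median-ratio size factors. Mrpl47, with 13.5, 15.8 and 18.8 in MI+TRD and 13.0, 16.4 and 18.5 in MI, had a log2 fold change of −0.016 (SE 0.13). Its head-to-head neighbour Ndufb5, a respiratory complex I subunit whose gene starts 265 bases away, had −0.50, and this pair differed at exact permutation p = 0.00649 (0.104 adjusted over 16 such pairs). Mrps30, which despite its name sits in the large subunit, averaged 23.1 ± 2.75 in MI+TRD and 25.9 ± 3.19 in MI (SD, n = 6 each). Its log2 fold change was −0.16 (SE 0.12), and it was 0.072 with equal column totals.

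**Figure D3:**
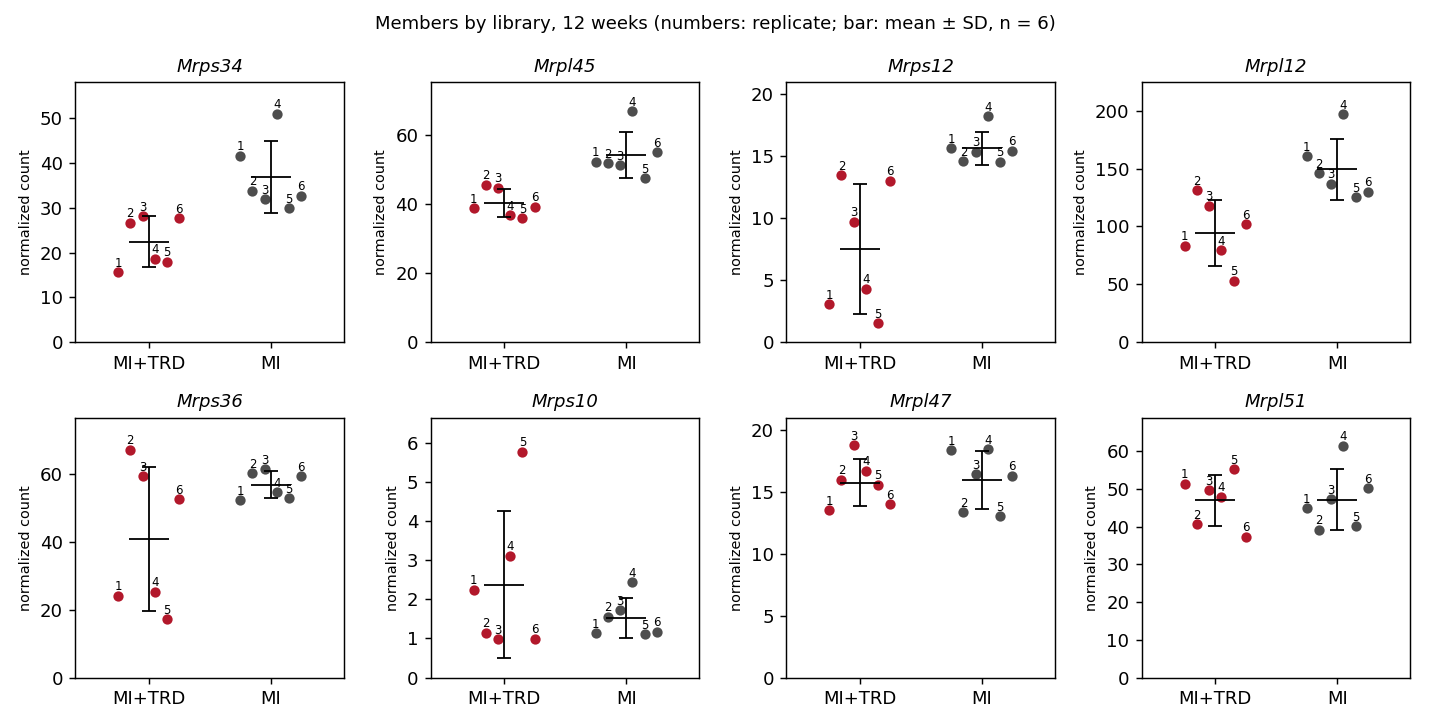
Points are normalized counts of 8 members in each 12-week library, numbered by replicate, MI+TRD in red at the left of each panel and MI in grey at the right, with bars for the mean ± SD (n = 6 each). The groups do not overlap for Mrps34, Mrpl45 and Mrps12, Mrps36 has MI+TRD replicates 1, 4 and 5 far below all other libraries, Mrps10 is highest in MI+TRD replicates 4 and 5, and Mrpl47 and Mrpl51 overlap.

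In the small subunit 17 of 24 members were lower at an unadjusted limma p below 0.05, and the median log2 fold change was −0.49. Mrps34, a mitochondrion-specific protein whose loss in humans causes a respiratory chain disease, had the smallest p of the family. Its normalized counts were 15.6, 22.7 and 28.2 in MI+TRD and 29.9, 33.3 and 51.0 in MI, and every MI+TRD library was below every MI library. The log2 fold change was −0.72 (SE 0.18, limma adjusted p = 0.133), and −0.39 without MI+TRD replicates 1, 4 and 5. The exact permutation p was 0.00216, the smallest that 6 against 6 libraries allow.

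Mrps12, the counterpart of the bacterial decoding-centre protein that streptomycin resistance maps to, had the lowest fold change of the family. It had 1.53, 7.02 and 13.5 in MI+TRD and 14.6, 15.4 and 18.2 in MI. All 6 MI+TRD libraries were below MI, but they were wide apart, with 3.05, 13.5, 9.71, 4.32, 1.53 and 13.0 in replicates 1 to 6, and 38 reads in the lowest. This gave a log2 fold change of −1.40 (SE 0.42, exact permutation p = 0.00216), and −0.38 without replicates 1, 4 and 5. Mrps12 shares its start region with Sars2, the mitochondrial seryl-tRNA synthetase, 193 bases away and on the opposite strand. Sars2 had a log2 fold change of −0.21, and the member had a difference from its partner of −1.19 (exact permutation p = 0.0346, 0.185 adjusted over 16 pairs).

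Mrps7, which binds the head of the small-subunit RNA, had 15.4, 26.0 and 37.2 in MI+TRD and 35.2, 40.9 and 60.5 in MI. In MI+TRD 5 libraries lay below every MI library, and the log2 fold change was −0.80 (SE 0.23). Mrps16, a protein of the subunit's body, had 14.9, 25.6 and 38.0 in MI+TRD and 30.6, 44.2 and 49.1 in MI, with 4 MI+TRD libraries below MI and a log2 fold change of −0.74 (SE 0.21). Without MI+TRD replicates 1, 4 and 5 the values were −0.29 for Mrps7 and −0.32 for Mrps16. With all libraries both were lower at an unadjusted limma p below 0.05.

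Mrps14 averaged 22.9 ± 6.52 in MI+TRD and 33.4 ± 5.49 in MI (SD, n = 6 each), a log2 fold change of −0.57 (SE 0.18). Mrps22 averaged 10.4 ± 1.76 in MI+TRD and 12.6 ± 1.25 in MI, a log2 fold change of −0.28 (SE 0.14) that was not past an unadjusted limma p of 0.05 (exact permutation p = 0.0346). The 3 paralogues of the bacterial S18 protein take different places, Mrps18a in the large subunit and Mrps18b and Mrps18c in the small one. Their log2 fold changes were −0.44 (SE 0.18) for Mrps18a, −0.42 (SE 0.17) for Mrps18b and −0.37 (SE 0.22) for Mrps18c. Mrps18a and Mrps18b were lower at an unadjusted limma p below 0.05 and Mrps18c was not (exact permutation p = 0.134). Without MI+TRD replicates 1, 4 and 5 none of these 5 members was lower at that threshold. The log2 fold changes were then −0.27 for Mrps14, −0.085 for Mrps22, −0.13 for Mrps18a, −0.10 for Mrps18b and −0.058 for Mrps18c, and all but that of Mrps14 were above the median of all genes, −0.15.

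In the small subunit 2 members had fold changes above 0. Mrps2, with 16.0, 19.4 and 21.1 in MI+TRD and 13.1, 18.6 and 20.7 in MI, had a log2 fold change of 0.078 (SE 0.13), and the groups overlapped. With equal column totals it was the only member higher at an unadjusted limma p below 0.05, at 0.31. Mrps10 had 2.25, 1.14, 0.975, 3.11, 5.77 and 0.995 in MI+TRD replicates 1 to 6, and 1.11, 1.36 and 2.43 (lowest, median, highest) in MI. Its 2 highest libraries of the 12 were MI+TRD replicates 4 and 5, where most other members were low. Its log2 fold change was 0.35 (SE 0.38, exact permutation p = 0.442) from 20 to 146 reads a library, and −0.43 without replicates 1, 4 and 5. Mrps33, another member with low values, had 1.79, 5.05 and 8.26 in MI+TRD and 4.92, 7.03 and 9.27 in MI, a log2 fold change of −0.61 (SE 0.31) that was 0.083 without those libraries.

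Mrps36, outside the mitoribosome, had 24.1, 67.1, 59.3, 25.3, 17.3 and 52.6 in MI+TRD replicates 1 to 6, and 52.2, 56.9 and 61.4 (lowest, median, highest) in MI. MI+TRD replicates 1, 4 and 5 were below every MI library, replicates 3 and 6 were inside the MI range and replicate 2 was above it. It was lower at an unadjusted limma p below 0.05, with a log2 fold change of −0.65 (SE 0.28, exact permutation p = 0.134), and was at 0.068 without MI+TRD replicates 1, 4 and 5.

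**Figure D4:**
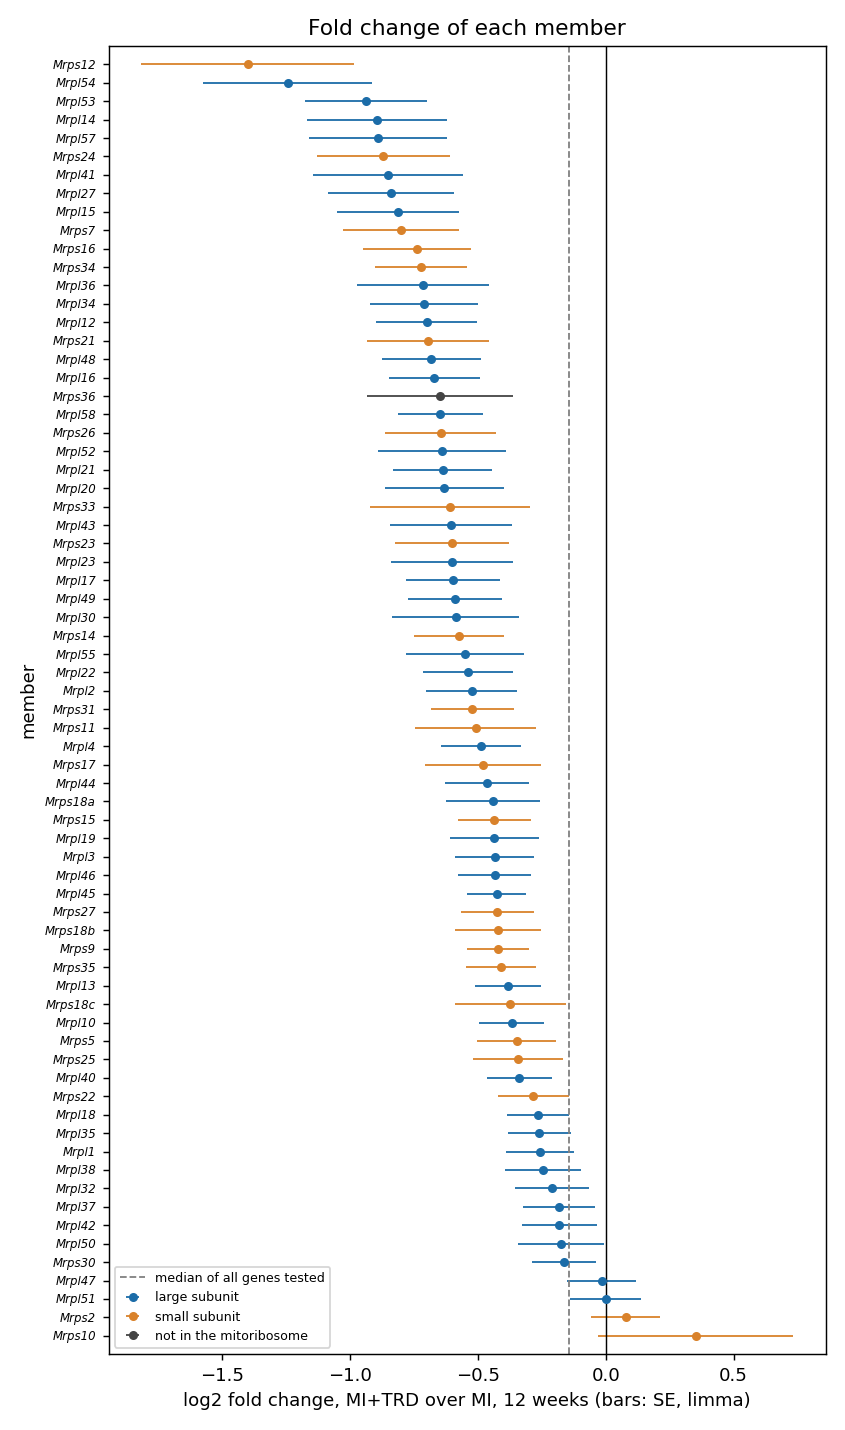
Points are the log2 fold changes of the 70 members at 12 weeks (MI+TRD over MI) with bars for the SE from limma, coloured by subunit, beside 0 (solid line) and the median of all genes tested at −0.14 (dashed line). Members of both subunits are mixed along the order, 66 of 70 lie below the dashed line, and Mrps2 and Mrps10 lie above 0.

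Across the family, 47 members were below the MI mean in all 6 MI+TRD libraries, which held for 19.6% of all genes. In at least 5 libraries 61 members were, a count for which the share of all genes was not computed. MI+TRD replicate 5 was the lowest MI+TRD library for 38 members, replicate 1 for 17, replicate 4 for 10, replicate 6 for 4 and replicate 3 for 1. Both subunits had their members low in the same libraries. The large-subunit mean minus the library median was 0.960 ± 0.320 in MI+TRD and 1.33 ± 0.143 in MI, and the small-subunit mean was 0.636 ± 0.332 in MI+TRD and 1.0001 ± 0.131 in MI (SD, n = 6 each).

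Genomic span, the distance between a gene's ends in the file, moved with the fold change. Members were short, with a median of 6652 bases against 21291 for all genes, and Spearman's rho between span and log2 fold change was 0.33 across the 70 members and 0.38 across all genes, which are not independent replicates. Within each class of span more members than other genes were lower at an unadjusted limma p below 0.05. The shares were 84.0% of 25 members and 36.7% of other genes up to 5 kb, and 71.4% of 21 members and 31.2% of others at 5 to 10 kb. They were 58.3% of 12 members and 20.7% of others at 10 to 20 kb, and 83.3% of 12 members and 9.9% of others over 20 kb. The last class holds Mrpl36 and Mrpl53, both lower, whose deposited spans of 1309570 and 866615 bases overlap other genes and may not be their own lengths. With the trend over span removed in each library, 25 members were lower, beside 8.10% of all genes, and 1, Mrps2, was higher, beside 5.10%, and the median lay 0.26 below that of all genes.

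Lists of genes that work with the family differed in how many members were lower, beside 19.1% of all genes. Of 5 mitoribosomal proteins with other names 4 were lower and 0 higher at an unadjusted limma p below 0.05, with a median log2 fold change of −0.51. They were Dap3, the GTP-binding small-subunit protein, at −0.51 (SE 0.14), Gadd45gip1 at −0.60 (SE 0.19), Chchd1 at −0.60 (SE 0.22) and Aurkaip1 at −0.49 (SE 0.19). Ptcd3, an RNA-binding protein of the small subunit, had −0.084 (SE 0.12). Of mitochondrial translation factors 5 of 14 were lower, among them Tufm, the elongation factor, with 96.7 ± 29.4 in MI+TRD and 143 ± 26.8 in MI (SD, n = 6 each). Of assembly and rRNA modification factors 15 of 26 were lower, with Mrm3, a methyltransferase of the large rRNA, at −0.78 (SE 0.20). Of mitochondrial DNA transcription and replication genes 5 of 10 were lower, and Tfam, which packages mitochondrial DNA, was at −0.62 (SE 0.21).

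Among 11 nuclear regulators of mitochondrial genes, with a median log2 fold change of −0.087 against −0.14 for all genes, 1 was lower, Esrra, an orphan receptor that drives oxidative genes, at −0.55 (SE 0.16). Gabpa, which binds the ETS motif, had 0.32 (SE 0.17), Yy1 had −0.085 (SE 0.22) and Nrf1 had −0.25 (SE 0.22). Ppargc1a had 0.44 (SE 0.27). The respiratory chain and ATP synthase subunits, whose mitochondrial partners these ribosomes translate, had 68 of 76 lower with a median of −0.68. The cytosolic ribosomal proteins had 29 of 76 lower with a median of −0.49. None of the lists had a member higher at that threshold, and none had one past the adjusted threshold. Without MI+TRD replicates 1, 4 and 5 the lower members were 3 of 76 for the respiratory chain, 0 of 76 for the cytosolic ribosome, 6 of 26 for the assembly factors, 1 of 14 for the translation factors, 1 of 10 for the mitochondrial DNA genes, 2 of 11 for the regulators and 2 of 5 for the proteins with other names, beside 9.69% of all genes.

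Many members share a start region with another gene. Within 1000 bases of the start 18 members had a head-to-head neighbour, and Mrpl46 and Mrps11 were each other's. Of the other 16 neighbours, 3 (Klc4, Psma2 and Ndufb5) and 0 were lower and higher at an unadjusted limma p below 0.05, against 12 of the 16 members beside them and 19.1% of all genes lower. The member had the lower fold change in 14 of 16 pairs, with medians of −0.42 for the members and −0.28 for the neighbours, which also had longer spans (median 12637 against 5496 bases). No pair passed 0.05 after adjustment over the 16 pairs, the smallest being 0.104. Another gene's coordinates overlapped those of 15 members, and how reads in such overlaps were counted is not stated.

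At 6 weeks the family was close to all genes in the authors' deposited table. The ratio of MI+TRD to MI was below 1 for 56 of 70 members, and 49 of 70 were below the median of all rows. The members' median ratio was 0.936, with a range of 0.778 to 1.196. Their median log2 ratio lay 0.057 below that of all rows, which was itself −0.039. Lower at an unadjusted p below 0.05 were 2 members, beside 4.09% of all rows, and higher were 0, beside 4.42%. They were Mrpl42, at a ratio of 0.789 (p = 0.024), and Mrpl13, at 0.778 (p = 0.0353), both of the large subunit, in the authors' deposited table. No member and 0% of all rows passed a false discovery rate of 0.05 there, the lowest of a member being 0.489. The next lowest p in the authors' deposited table were those of Mrps35, Mrpl58 and Mrps14, at ratios of 0.825, 0.793 and 0.778. The 5 members above 1 with the smallest p were Mrpl36 at 1.196, Mrpl15 at 1.12, Mrpl51 at 1.09, Mrpl49 at 1.097 and Mrps30 at 1.09 in that authors' deposited table.

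Set beside the authors' deposited table at 12 weeks, 66 of 70 members had a lower ratio at 12 than at 6 weeks. The members' median ratio at 12 weeks was 0.697, with a range of 0.440 to 1.55. Below 1 at both times were 55 members. Shares of all genes were not computed for these counts, and the median log2 ratio of all genes was itself −0.16 at 12 weeks and −0.039 at 6 weeks. Across the 70 members Spearman's rho between the log2 ratios of the 2 times was 0.23 and Pearson's r 0.22, a description over genes that share libraries. Mrps12 had a ratio of 1.01 at 6 weeks and 0.463 at 12 weeks, while Mrpl54 had 0.868 and 0.440, both in the authors' deposited tables. The 2 tables were normalized separately and the difference between the times was not tested.

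**Figure D5:**
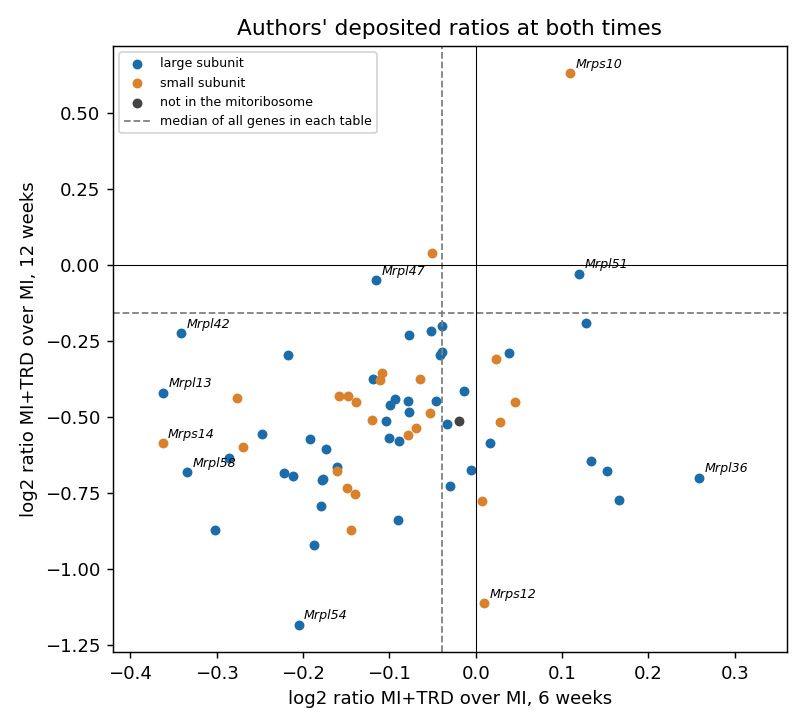
Each point is 1 member, coloured by subunit, with the log2 ratio of MI+TRD to MI at 6 weeks on the horizontal axis and at 12 weeks on the vertical axis, both from the authors' deposited tables, and dashed lines for the median of all genes in each table. Most points lie in the lower left, and 66 of 70 have the lower ratio at 12 weeks (share of all genes not computed).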

How the data were processed

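Myocardial RNA was sequenced with Illumina chemistry (labels' protocols). For the processing, the submitters' processing notes give Partek and the rat build rn6. The sources used here do not give the aligner, the annotation, the scaling, the model or the use of strand. What the authors deposited at 12 weeks is a signal per library, a normalized count for every gene, per the file headers. They also deposited 2 tables of comparisons with a p-value, a false discovery rate and a linear ratio (MI+TRD over MI) for each gene, per the file headers. A signed fold change in these tables was treated as a score deposited by the authors, the ratio or minus its reciprocal, and was not used. Low values were whole multiples of 1 step per library (97.2% to 98.6% of those up to 20 steps, within 0.1), so each value was read as reads plus 1 in steps. Because the values had been scaled, edgeR's quasi-likelihood test and DESeq2 on these reads were alternatives only.

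The 12-week test was limma (3.58.1, R 4.3.3) with a trended prior on log2(value + 0.208 deposited units), two-sided, on 10655 genes with a mean of at least 0.415 units, adjusted by Benjamini-Hochberg. Fold changes on this scale understate low genes. Exact permutation tests were two-sided over all 924 assignments. The labels name separate samples but no animals, so a p-value covers only the variation among samples. Libraries of a group differed beyond sampling noise in every pair (chi-square of 14.7 or more per degree of freedom). A count of 0 allows at most 3 reads, for counting error only. Replicate numbers were not shown to pair the samples. Alternatives used edgeR 4.0.16 and DESeq2 1.42.0, other pseudocounts, filters and scalings, library weights, a covariate and left-out libraries. The limma step was tested on simulated reads with the same dispersion for every gene. That simulation held no libraries that stood apart and no trend over span, so it does not cover these features.

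Members and lists were chosen with earlier results of these data known. Named were the 10 members with the smallest p, the 5 with the highest fold change, the 5 highest and 3 lowest in level, a fixed set by role, and at 6 weeks the 5 smallest p each way. Lists are given by count and median, with no test of a list. Gene coordinates are rn6 as deposited, and promoters are RefSeq sequences of GRCr8. Promoters of Mrpl13, Mrpl15, Mrpl16, Mrpl19, Mrpl21, Mrpl35, Mrpl38, Mrpl43, Mrps12, Mrps22, Mrps24, Mrps34, Mrps35 and Mrps36 were not used here.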

Additional observations from a re-analysis of the deposited data

Results flagged for a closer look

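Among 76 groups of 6 libraries examined (named members and marker sums, in each group), 9 held a library far from the other 5, by a gap beyond Dixon's critical value for 6 values. Chance flags about 1 group in 20. In MI replicate 4 these were Mrps7 at 60.5 (next 43.8), Mrpl4 at 82.7 (next 59.4), Mrpl49 at 9.67 (next 7.13) and Mrps12 at 18.2 (next 15.6), each the highest MI value. Mrps18c was highest in MI replicate 2 at 15.9 (next 10.7). Without MI replicate 4 the members lower numbered 44, beside 13.4% of all genes, against 53 and 19.1% with it.

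The summed atrial markers (Nppa, Myl4, Myl7 and Sln) were 3257 in MI+TRD replicate 2 (next 952) and 11798 in MI replicate 2 (next 3346). The macrophage markers summed to 1810 in MI+TRD replicate 6 (next 113), and the fibroblast markers to 3036 in the same library (next 1329). Without the 3 libraries high in Myl7 (MI+TRD replicate 2 and MI replicates 2 and 5), 58 members were lower, beside 15.3% of all genes, and without MI+TRD replicate 6, 55 were, beside 21.9%.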

How the results depend on the processing

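Pseudocounts, filters, the Wilcoxon test (41 lower, beside 15.4% of all genes), quantile normalization (38, beside 9.81%), Myl7 as a covariate (42, beside 14.2%) and the 12 fits without 1 library each (44 to 60 lower, beside 13.4% to 21.9%, relative median −0.47 to −0.27) left the count of members lower within 1.5 times of 53, and 0 members passed the adjusted threshold under any setting. The count lower was 53 beside 19.1% of all genes as reported. It was 31 with median-ratio size factors (all genes, 8.24%), 31 with TMM (8.12%), 17 with equal column totals (1 higher; 3.87%), 27 with equal totals without ribosomal RNA (6.61%), 25 with the span trend removed (1 higher; 8.10%), 34 with library weights (relative median −0.21; 13.7%), 29 with edgeR (6.98%) and 28 with DESeq2 (7.17%). The alternatives chosen after seeing the data were Myl7 as a covariate, given above, and the fits without the libraries that stood apart or were high in Myl7. Without the 3 MI+TRD libraries that stood apart, 6 members were lower, beside 9.69% of all genes, with a relative median of −0.094. Without the 3 libraries high in Myl7, 58 were lower, beside 15.3%, with a relative median of −0.55. Reasons for these moves were not tested.

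Signs of named members turned in 37 values and held in 832. With median-ratio size factors, equal totals, totals without ribosomal RNA, quantiles, TMM, the span trend removed, library weights, edgeR and DESeq2, Mrpl51 had 0.16, 0.24, 0.19, 0.13, 0.16, 0.35, 0.027, 0.16 and 0.17, and Mrpl47 had 0.14, 0.22, 0.17, 0.10, 0.14, 0.19, 0.067, 0.14 and 0.15. By medians Mrpl51 had 0.083. Mrps30 had 0.072 with equal totals, 0.021 without ribosomal RNA and 0.10 with the span trend removed. Without MI+TRD replicates 1, 4 and 5, Mrps10 had −0.43, Mrpl47 0.026, Mrps36 0.068 and Mrps33 0.083, and without the libraries high in Myl7 Mrps2 had −0.048. Leaving out 1 library at a time gave −0.00929 to 0.12 for Mrps2, −0.050 to 0.079 for Mrpl51 and −0.072 to 0.027 for Mrpl47.

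With the replicate number as a block 53 members were lower, beside 17.2% of all genes. Same-numbered libraries correlated at −0.33 to 0.33, so the numbers were not taken to pair samples. At 6 weeks, rows above the median level and rows shared with 12 weeks gave 2 lower and 0 higher. At 20 reads Mrps10 is limited by depth.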
